A study of Mus musculus with 8 samples.

Results

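The cells described here are T cells from inflamed mouse joints with no CD8 transcript and few or no transcripts of a small set of effector genes. They were chosen by their own counts of unique molecular identifiers (UMIs, the tags that mark single captured mRNA molecules): 2 or more UMIs of Cd3d, Cd3e, Cd3g and Trac together, 0 UMIs of Cd8a and Cd8b1, fewer than 3 UMIs of Ccl5, Nkg7, Gzmk and Cxcr3 together, at most 2 UMIs of the B cell genes Cd79a, Cd79b and Ms4a1, and S100a8 plus S100a9 under 5% of all UMIs. This rule selected 204 of 10256 cells kept from 8 mice, and 204 of the 752 cells that passed the T cell criterion. The genes in the rule are given below only as a description of the selection.

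All mice were C57BL/6 animals made arthritic with K/BxN serum, which was given on days 0, 2 and again 9. Each was injected intravenously on day 12 with bone marrow monocytes taken from arthritic mice. The monocytes had been held for 90 min with vehicle (Mono, 4 mice) or with 1 nM MCTR3, a maresin conjugate in tissue regeneration (Mono+MCTR3, 4 mice). On day 22 CD45+ leukocytes were sorted from paw joints and sequenced by droplet single-cell RNA-seq, so the serum and the cell transfer were common to both groups and no mouse went without either. Within a group the mice are told apart by the suffix of the cell barcode, and the mouse numbers below follow that suffix. The selected cells held 46687 to 80348 UMIs per Mono mouse and 24883 to 138875 per Mono+MCTR3 mouse, with a median of 2840 UMIs per cell. No cell barcode among them was shared between mice of a group or between the groups.

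Most T cells carry a receptor of alpha and beta chains and fall into CD8 cells, which kill infected cells, and CD4 cells, which direct other leukocytes through cytokines and surface ligands. Regulatory T cells are CD4 cells that depend on the transcription factor Foxp3 and restrain inflammation. A smaller lineage carries a receptor of gamma and delta chains, and one branch of it is known in mouse skin and joints as a rapid source of IL-17A, a cytokine that recruits neutrophils.

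The T cell identity was checked with genes outside the rule. Trbc2, a constant segment of the receptor beta chain, was present in 192 of the 204 cells (94.1%), against 15 of 1380 B cells (1.09%). The B cells were chosen with 3 or more UMIs of Cd79a, Cd79b and Ms4a1 together and no UMI of Cd3d, Cd3e, Cd3g or Trac. Their shares of T cell genes can therefore lie below the level of free T cell RNA. Thy1, a surface glycoprotein of T cells, was found in 115 cells (56.4%) and in 9 B cells (0.652%). Lat, an adaptor of receptor signalling, was found in 144 cells (70.6%) and in 6 B cells (0.435%). Ncr1 of natural killer cells and Rag1 of immature lymphocytes had no UMI in any of the 204 cells. Other genes of these types were found: Klrb1c in 1 cell, Dntt in 2 and Tyrobp in 63 (30.9%, beside 32.4% of B cells). In 5 cells the natural killer list reached 10 or more UMIs. Cd4 was seen in a minority, so the cells are called here by the rule and not as CD4 T cells.

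At the edge of the T cell criterion 6 cells held exactly 2 of its UMIs and 12 held 3, while 186 held 4 or more. Trbc2 was present in 50% of the 6 cells with 2 UMIs and in 95.5% of the 198 cells with more. Outside it lay 36 cells with 1 UMI that met every other criterion, of which 8.33% had Trbc2 and 80.6% had Lyz2, a gene of monocytes and neutrophils. Of the 204 cells 157 had 0 effector UMIs, 32 had 1 and 15 had 2, and a further 5 cells lay just outside with 3. Just outside the CD8 limit lay 13 T cells with 1 CD8 UMI. The absence of CD8 UMIs depends on depth. The CD8 T cells used for comparison had fewer than 3 effector UMIs (122 cells, 106 of them with 3 or more CD8 UMIs). When these were thinned to 1000 UMIs each, 22.1% lost every CD8 UMI. All 204 selected cells held at least 1000 UMIs, with a median of 2840, so this share does not give the loss at their own depth.

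The selected cells were 1.75% ± 0.287 (SD, n = 4) of all kept cells in Mono mice and 2.09% ± 1.01 (SD, n = 4) in Mono+MCTR3 mice. By mouse, the Mono shares were 2.08%, 1.58%, 1.44% and 1.88% (24 of 1153, 25 of 1578, 17 of 1178 and 25 of 1332 cells). The Mono+MCTR3 shares were 3.14%, 2.56%, 0.794% and 1.85% (42 of 1337, 49 of 1913, 8 of 1007 and 14 of 758 cells). The Mono+MCTR3 range enclosed the whole Mono range, and the difference was within the spread between mice (two-sided exact permutation test, p = 0.571). It became -0.0122 percentage points without Mono+MCTR3 mouse 1. Of the kept cells with S100a8 and S100a9 under 5% of UMIs, the selected cells were 4.80% ± 0.803 and 6.21% ± 1.46 (SD, n = 4), a difference of 1.41 points (exact permutation test, p = 0.2). Among T cells the share was 24.1% ± 5.56 (SD, n = 4) and 29.4% ± 8.79 (SD, n = 4), which again overlapped (exact permutation test, p = 0.314). The smallest two-sided p that 4 against 4 mice allow is 0.0286.

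**Figure D1:**
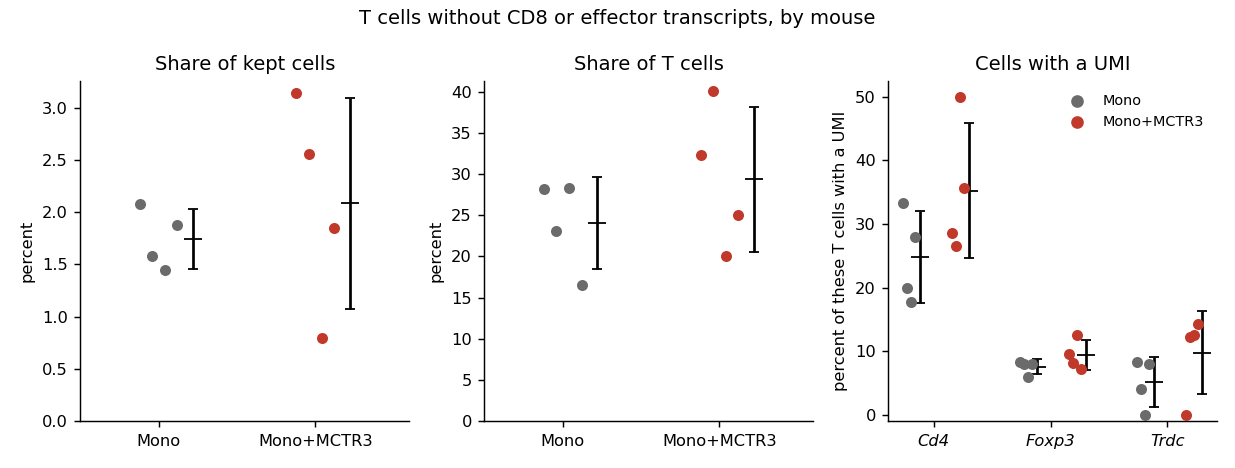
Share of the selected T cells among kept cells (left) and among T cells (middle), and percent of the selected cells with a Cd4, Foxp3 or Trdc UMI (right), for each mouse (points) with the group mean ± SD (black bars, n = 4). The groups overlap in every panel, and the Mono+MCTR3 shares of kept cells run from 0.794% to 3.14%.

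Cd4 (chr6:124864692-124888221, GRCm38), the coreceptor of helper T cells, was detected in 57 cells (27.9%, 74 UMIs). The share was 2.46% in CD8 T cells, 2.58% in T cells with 3 or more effector UMIs (effector T cells, 426 cells) and 0.0725% in B cells. Because the B cells were chosen to hold no UMI of the rule's T cell genes, they cannot give the full level of free T cell RNA. Median depth was 2840 UMIs in the selected cells, 3478 in CD8 T cells, 3979 in effector T cells and 2249 in B cells. Across mice Cd4 was found in 33.3%, 20%, 17.6% and 28% of cells in the Mono group and in 28.6%, 26.5%, 50% and 35.7% in the Mono+MCTR3 group. The highest of these was 4 of 8 cells. The group means were 24.7% ± 7.24 (SD, n = 4) and 35.2% ± 10.6 (SD, n = 4), and the groups overlapped (exact permutation test, p = 0.143, adjusted over the 3 genes 0.257). With every cell thinned to 1000 UMIs the means were 11.3% and 12.6%.

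Foxp3 (chrX:7573644-7595245) was detected in 17 cells (8.33%), against 2 CD8 T cells (1.64%), 3 effector T cells (0.704%) and 0 of 1380 B cells, which allows a share of up to 0.217%. It was present in every mouse, in 1 to 4 cells each, and the share averaged 7.55% ± 1.13 for Mono and 9.33% ± 2.33 for Mono+MCTR3 mice (SD, 4 mice each; exact permutation test, p = 0.229, adjusted 0.257). Trdc (chr14:54142851-54148868), the constant segment of the receptor delta chain, was detected in 14 cells (6.86%) with 162 UMIs, against 3 B cells (0.217%). The Trdc share by mouse was 8.33%, 4%, 0% and 8% in Mono and 0%, 12.2%, 12.5% and 14.3% in Mono+MCTR3. Mono mouse 3 and Mono+MCTR3 mouse 1 had no such cell among 17 and 42, which allows shares of up to 17.6% and 7.14%, and the groups overlapped (exact permutation test, p = 0.257, adjusted 0.257). After thinning, the Trdc means were 4.94% and 4.93%. Trdc was also found in 44 effector T cells (10.3%) and 5 CD8 T cells (4.10%).

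Few cells carried more than one of these transcripts. Cd4 and Foxp3 were seen together in 5 cells, Cd4 and Trdc in 3, and Foxp3 and Trdc in 1. Cd4 was in 29.4% of the Foxp3-positive cells, near its 27.9% in all 204 cells. With such sparse detection, the small overlaps do not show that the transcripts exclude each other. In 125 cells (61.3%) none of the 3 was detected, and 93 of those held a UMI of Ccr7 or Lef1. To describe the mixture, the 204 cells were split by detection, without overlap, into 17 with Foxp3, 18 with Trdc, Tcrg-C1, Cd163l1 or Il17a and no Foxp3, 48 with Cd4 alone, and 121 with none of the 6 genes. These subsets are defined by the transcripts themselves, and their median depths were 2146, 3635, 2847 and 2807 UMIs.

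**Figure D2:**
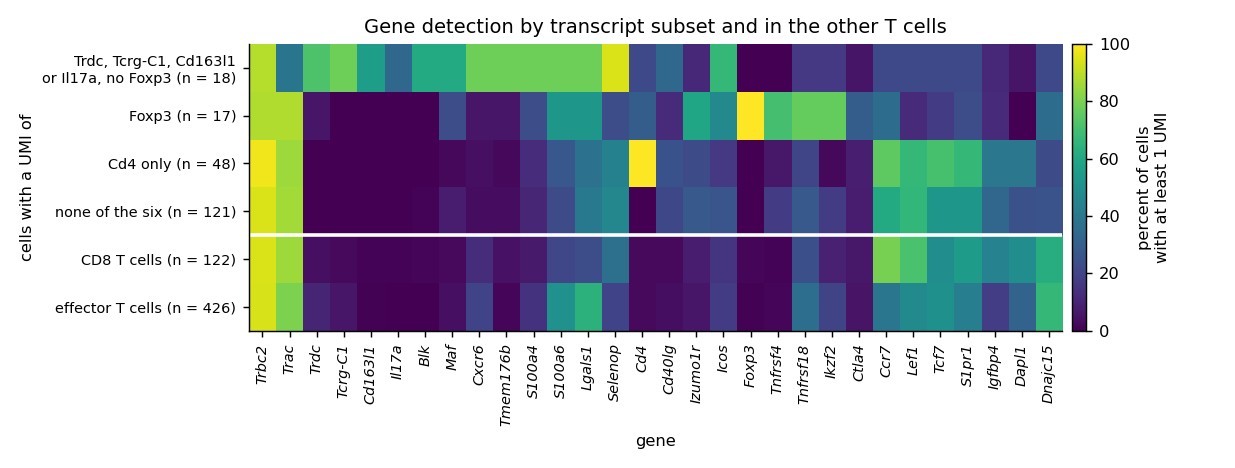
Percent of cells with at least 1 UMI (colour scale) of each gene (x axis) in the 4 non-overlapping subsets of the selected cells (upper rows, with cell numbers) and in CD8 and effector T cells (lower rows). Cxcr6, Tmem176b, S100a4, S100a6 and Lgals1 are each in 77.8% of the 18 gamma-delta or Il17a cells, and Ccr7, Lef1 and Tcf7 are each in 52.9% to 75% of the Cd4-only cells and the cells with none of the 6 genes.

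Gamma-delta transcripts were concentrated in a few cells. All 10 cells with Cd163l1, a scavenger receptor of IL-17-producing gamma-delta T cells, had Tcrg-C1, a constant segment of the gamma chain, and Cxcr6, a chemokine receptor, and Tmem176b, a membrane protein. Trdc was present in 9 of them, the Src-family kinase Blk in 9, Il17a in 5 and the transcription factor Maf in 7, while Cd4, Foxp3 and Ccr7 were absent and Trac was found in 1. These 10 cells held 156 of the 162 Trdc UMIs, 93 of 102 Tcrg-C1 UMIs and 71 of 112 Cxcr6 UMIs among the 204. Trac was detected in 38.9% of the 18 cells, against 85.4% of the Cd4-only cells.

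By mouse, cells with Cd163l1 numbered 2, 1, 0 and 2 in Mono and 1, 4, 0 and 0 in Mono+MCTR3. Cells with Il17a numbered 1, 0, 0 and 0 in Mono and 1, 4, 0 and 0 in Mono+MCTR3. Of the 51 Il17a UMIs, 30 were in 1 cell of Mono+MCTR3 mouse 1. Among the 14 Trdc-positive cells, Tcrg-C1, Cd163l1 and Blk were each detected in 9, against 5, 1 and 3 of the other 190 cells. Over the 6 mice with such cells the level was higher in 4 of 6 for each of the 3 genes (sign-flip exact permutation test, p = 0.125, adjusted over 8 genes 0.167), and the smallest p possible with 6 mice is 0.0313.

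Other genes of regulatory T cells were counted in the Foxp3-positive cells and in the rest. Tnfrsf4 (OX40) and Tnfrsf18 (GITR), receptors of the TNF family, were found in 12 and 13 of the 17 cells, against 24 and 47 of the other 187. Ikzf2 (Helios), a transcription factor of regulatory T cells, was found in 13, against 25, and Izumo1r, the folate receptor 4 of regulatory and unresponsive CD4 cells, in 10, against 47. The Tnfrsf4 level was higher in the Foxp3-positive cells in 7 of 8 mice (sign-flip exact permutation test, p = 0.0156, adjusted over 9 genes 0.141), and 0 of the 9 genes tested passed after adjustment. Dapl1 was found in none of the 17 cells, against 39.6% of the Cd4-only cells, and Lef1 in 2 of the 17.

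The Cd4-only cells and the cells with none of the 6 genes carried genes of resting T cells that circulate through lymph nodes. Ccr7, the receptor that guides cells into lymph nodes, was in 75% and 61.2% of them, the transcription factors Lef1 in 66.7% and 66.1% and Tcf7 in 70.8% and 52.9%, and S1pr1, which mediates exit from lymph nodes, in 66.7% and 52.9%. In CD8 T cells the same genes were in 79.5%, 71.3%, 49.2% and 54.9%. Cd40lg, the helper ligand that licenses B cells and dendritic cells, was in 25% of Cd4-only cells and in 21.5% of the 121 cells with none of the 6 genes, but in 2.46% of CD8 T cells and 3.52% of effector T cells. Dnajc15, a mitochondrial co-chaperone, had the lower shares here, with 22.9% and 25.6% in the same subsets against 62.3% of CD8 T cells.

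Set against all other kept cells, with 10 counts per 1000000 UMIs (CPM) added to both, the genes that stood out most besides the rule's own were Tcrg-C1 (14.3-fold), Izumo1r (13.9-fold), Cd163l1 (12.2-fold), Lef1 (12.1-fold), Tnfrsf4 (12-fold), Icos, a costimulatory receptor (11.9-fold), Cxcr6 (11.4-fold), Trbc2 (11.4-fold) and Cd4 (11.2-fold). These folds describe the selection and carry no test. Most of the other kept cells were not T cells, so a high fold need not set the selected cells apart from other T cells. Cxcr6 was in 10.3% of the selected cells, 13.1% of CD8 and 20.2% of effector T cells. For Trbc2 the shares were 94.1%, 94.3% and 94.1%, for Lef1 57.8%, 71.3% and 47.4%, and for Tcrg-C1 6.86%, 2.46% and 6.10%. Izumo1r, Cd163l1, Tnfrsf4, Icos and Cd4 were in a larger share of the selected cells than of either class. Trbc2 and Trbc1 are near-identical copies, so reads may be split between them.

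The selected cells were next compared with CD8 T cells of the same mice, on counts summed per mouse with the mouse as a block (edgeR quasi-likelihood test, Benjamini-Hochberg adjustment, genes of the rule left out). Of 635 genes tested 85 differed (13.4%), 48 higher in the selected cells (7.56%) and 37 lower (5.83%). Lgals1 (galectin-1; chr15:78926725-78930465) had the largest rise, at 1.49 ± 0.228 on the log2 scale (SE, adjusted p = 0.000634). Its level was 719.8 ± 339 CPM in the selected cells and 238 ± 215 CPM in CD8 T cells (SD, n = 8), and it was higher in 8 of 8 mice. S100a6 and S100a4, calcium-binding proteins of activated cells, rose by 1.45 ± 0.272 and 1.25 ± 0.315 (log2 ± SE, adjusted p = 0.00239 and 0.0162), each in 7 of 8 mice. Selenop, a secreted selenium carrier (chr15:3268547-3280508), rose by 1.32 ± 0.210 (adjusted p = 0.000733) from 116 ± 58.9 to 296 ± 100.5 CPM, in 8 of 8 mice.

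Gimap4, a GTPase of the immunity-associated family, rose by 1.04 ± 0.187 (adjusted p = 0.00203), also in 8 of 8 mice, and Rgs2, which dampens G protein signalling, by 1.04 ± 0.232 (adjusted p = 0.00647) in 7 of 8. Ass1, an enzyme of arginine synthesis, rose by 1.12 ± 0.285 (adjusted p = 0.0164) in 7 of 8 mice. Dnajc15 (chr14:77820681-77875125) fell most, by -1.52 ± 0.233 (adjusted p = 0.000634), from 316 ± 97.3 CPM in CD8 T cells to 105 ± 30.9 CPM, with the 2 ranges apart and the lower level in 8 of 8 mice. Tubb5, a beta-tubulin, fell by -0.68 ± 0.159 (adjusted p = 0.00903) in 7 of 8 mice. Of the 20 genes named by size, 8 (Dapl1, Dusp10, Gpr132, Klk8, Saraf, Serinc3, Slc25a4 and Zfas1) lost the call when at least 1 mouse was left out, with adjusted p of 0.0517 to 0.156, and the other 12 kept it in every fit that tested them.

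Some of these differences were smaller without the cells that held a gamma-delta or Il17a transcript, called gamma-delta cells for short. For this 1 UMI was enough, so not all of them need belong to that lineage. Of the 18 such cells without Foxp3, 4 had Cd4 and 7 had Trac. Without the 19 cells that held Trdc, Tcrg-C1, Cd163l1 or Il17a, an alternative added after the data had been seen, the difference from CD8 T cells was 0.48 for Lgals1 (adjusted p = 0.32) and 0.48 for S100a6 (adjusted p = 0.425), and S100a4 was too low to be tested. In that fit 48 genes differed, 35 higher and 13 lower. Selenop (0.91, adjusted p = 0.0228), Ass1 (1.11, adjusted p = 0.0231), Gimap4 (1.15, adjusted p = 0.00156), Rgs2 (0.90, adjusted p = 0.0231) and Dnajc15 (-1.48, adjusted p = 0.00156) remained past the threshold. S100a4 was detected in 77.8% of the 18 gamma-delta or Il17a cells, 12.5% of Cd4-only cells, 10.7% of cells with none of the 6 genes and 7.38% of CD8 T cells.

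**Figure D3:**
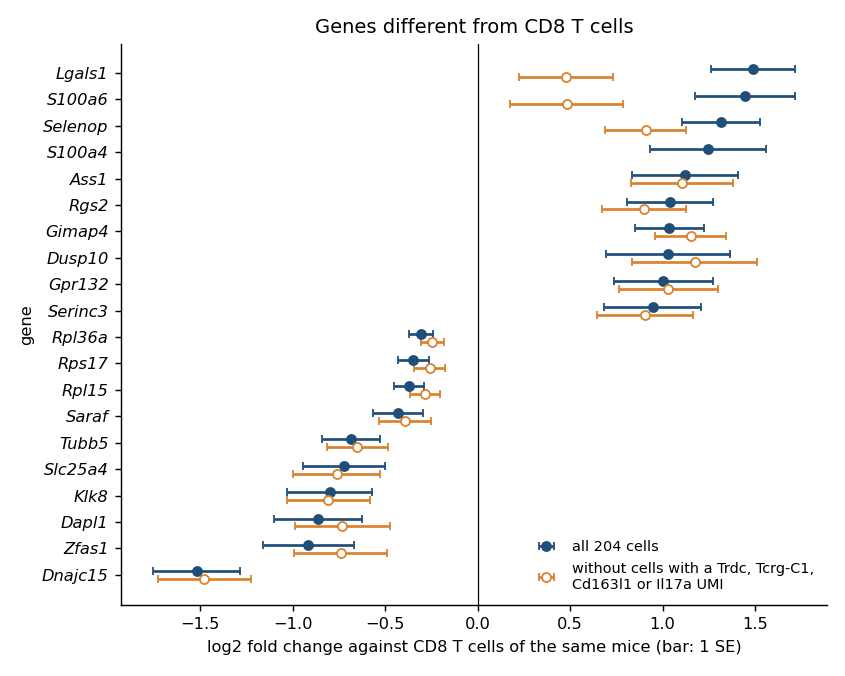
Log2 fold change (x axis, ± SE) between the selected cells and CD8 T cells of the same 8 mice for the 20 genes named by size, with all 204 cells (filled) and without cells holding Trdc, Tcrg-C1, Cd163l1 or Il17a (open, where tested). Lgals1 and S100a6 drop from 1.49 and 1.45 to 0.48 each, and Dnajc15 stays near -1.5.

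By gene list, 4 of 8 tested genes of activation and memory were higher than in CD8 T cells (S100a11, S100a4, S100a6 and Lgals1; median log2 difference 0.69, beside 0.06 over all genes tested), but 0 of 7 without the gamma-delta cells. Immediate early genes, which respond within minutes to receptor signals or handling, were higher for 4 of 11 (Btg2, Dusp1, Junb and Jund; median 0.37), and for 2 of 11 without the mouse block. Junb rose by 0.72 ± 0.135 (adjusted p = 0.00239) in 8 of 8 mice and Jund by 0.87 ± 0.167 (adjusted p = 0.00239) in 7 of 8. In the list of receptor and signalling genes 3 of 10 were higher, namely Trbc2, Cd28 and Cd2. These 3, Btg2 and Ets1 each lost the call with at least 1 mouse left out (adjusted p of 0.0535 to 0.174). Of 18 quiescence and homing genes 2 were higher (Btg1 and Ets1) and 1 lower (Dapl1), and Lef1 (0.28, adjusted p = 0.309) and Ccr7 (-0.15, adjusted p = 0.713) did not pass. Heat shock genes (0 of 8), class I presentation genes (0 of 7), 1 interferon gene and 1 helper gene tested did not pass. Of 3 cell cycle genes 1 was lower (Tubb5).

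A group formed after the values were seen was the ribosomal proteins, of which 30 of 79 were lower than in CD8 T cells and 0 higher. Their differences were small, with a median of -0.17 on the log2 scale. That count depended on the fit: it was 9 without the mouse block, 9 without the gamma-delta cells, 11 of 83 by DESeq2, 2 with cells thinned, 0 of 83 with no filter on low counts, 18 with library totals in place of TMM scaling, and 12 to 30 with single mice left out (12 without Mono mouse 1 or Mono+MCTR3 mouse 1, 13 without Mono mouse 3, 14 without Mono mouse 4 and 15 without Mono mouse 2). With library totals the split over all genes was 54 higher and 23 lower. The count over all genes moved with other choices as well: it was 32 without the mouse block, 40 by DESeq2 and 22 of 197 with cells thinned to 1000 UMIs. It was 44, 44, 56 and 41 without Mono mouse 1, 2, 3 and 4, and 39 and 56 without Mono+MCTR3 mouse 1 and 2.

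Effector T cells, with 3 or more UMIs of Ccl5, Nkg7, Gzmk and Cxcr3, were compared in the same way. This class had no limit on CD8 UMIs, so CD8 lineage and effector state cannot be told apart in this comparison. Of the natural killer cell genes, Klrb1c was in 16% of its cells and Ncr1 in 3.99%, against 0.49% and 0% of the selected cells. Of 1191 genes tested 140 differed (11.8%), 83 higher in the selected cells (6.97%) and 57 lower (4.79%). Among the higher ones were receptors of CD4 and regulatory cells. Izumo1r was 175 ± 56.2 CPM in the selected cells and 25.3 ± 13.2 CPM in effector T cells (SD, n = 8), a difference of 2.76 ± 0.285 (log2 ± SE, adjusted p = 2.18e-07) without overlap between the 2 sets of mice. Tnfrsf4 differed by 2.74 ± 0.499 (adjusted p = 0.00051), from 16.3 ± 35.1 to 132 ± 29.8 CPM, and Icos by 1.53 ± 0.236 (adjusted p = 6.52e-05), each higher in 8 of 8 mice. Selenop again rose, by 2.54 ± 0.199 (adjusted p = 2.58e-09), and Igfbp4, a secreted binding protein of insulin-like growth factors, by 1.83 ± 0.185 (adjusted p = 1.6e-07).

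Of 18 homing and quiescence genes 7 were higher, 1 was lower (Ms4a4b) and 10 did not pass, with a median of 0.34 beside 0.03 over all genes. Lef1 rose by 1.09 ± 0.133 (adjusted p = 2.4e-06) from 229 ± 37.8 to 488 ± 90.5 CPM, S1pr1 by 0.99 ± 0.174 (adjusted p = 0.000371), Il7r, the receptor of the survival cytokine IL-7, by 0.79 ± 0.145 (adjusted p = 0.00051) and Ccr7 by 0.76 ± 0.175 (adjusted p = 0.00458). Of the regulatory T cell list 3 of 6 were higher (Izumo1r, Tnfrsf4 and Icos) and Il2rb, the shared receptor chain of IL-2 and IL-15, was lower by -2.09 ± 0.228 (adjusted p = 4.63e-07). Of the list of receptor and signalling genes 3 of 13 were higher, Trbc2 and Lat among them, and 2 lower (Lck and Thy1). Immediate early genes were higher for 5 of 12 and activation and memory genes for 3 of 13. Of 6 interferon genes 1 was higher (Ifi27l2a), of 3 cell cycle genes 1 was lower (H2afz), of 9 class I presentation genes 1 was lower (H2-Q7), and 0 of 9 heat shock, 0 of 2 helper and 0 of 1 gamma-delta and type 17 genes passed.

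Genes lower than in effector T cells included Dusp2, a phosphatase induced by activation (-1.93 ± 0.211, adjusted p = 4.82e-07), Ctla2a, a protease inhibitor (-1.72 ± 0.290, adjusted p = 0.00022), and Ctsd, a lysosomal protease (-1.40 ± 0.211, adjusted p = 5.59e-05), each lower in 8 of 8 mice. Dnajc15 was lower here too, by -1.56 ± 0.170 (adjusted p = 4.63e-07), and AW112010 by -1.37 ± 0.122 (adjusted p = 2.28e-08). Of the natural killer cell list 2 of 3 were lower (Klrk1 and Fcer1g). Fcer1g and Psmb10 were the only 2 of the 20 genes named by size that lost the call with a mouse left out (adjusted p of 0.0555 to 0.117). S100a4, at 2.07 ± 0.310 (adjusted p = 5.13e-05), was at 0.85 (adjusted p = 0.192) without the gamma-delta cells.

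The comparison that the experiment was built for, Mono+MCTR3 against Mono, changed no gene past the threshold in these cells. Of 749 genes tested 0 had an adjusted p under 0.05 (0%; edgeR quasi-likelihood test), 41 had an unadjusted p under 0.05, and DESeq2 called 0 with 50 at an unadjusted p under 0.05. The likelihood ratio test called 1, Hspa1b. Without Mono+MCTR3 mouse 2 there were 2, Lgals3 and Tyrobp, both lower in Mono+MCTR3. In the selected cells 32 of 120 Lgals3 UMIs and 32 of 123 Tyrobp UMIs lay in 1 cell of Mono mouse 1, the mouse that also held the cell with 416 of 495 Lyz2 UMIs; the part of these cells in both calls was not tested. With no filter on low counts 16 of 10683 genes were called, 3 higher and 13 lower. The spread between mice was large for 8 to 49 cells per mouse, so these values do not show that the groups were alike.

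**Figure D4:**
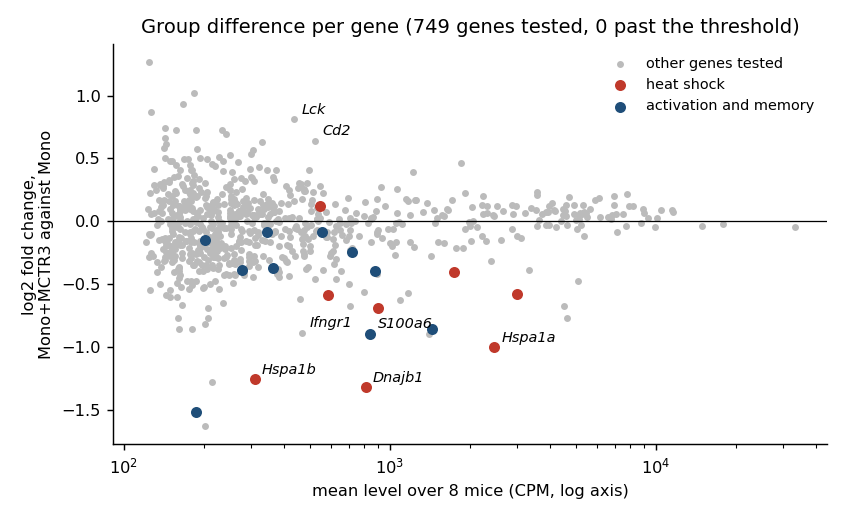
Log2 fold change between Mono+MCTR3 and Mono (y axis) against mean level over 8 mice (x axis, CPM, log scale) for the 749 genes tested in the selected cells, with heat shock genes in red and activation and memory genes in blue. Of the 8 heat shock genes 7 lie below 0, and 0 of 749 genes passed the threshold.

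The lowest p belonged to Hspa1b (chr17:34956436-34959238), an inducible heat shock protein. Its level was 292, 629, 428 and 423 CPM in the Mono mice and 209, 194, 161 and 144 CPM in the Mono+MCTR3 mice. Every Mono mouse was above every Mono+MCTR3 mouse, with a log2 difference of -1.25 ± 0.266 (SE, adjusted p = 0.146). Hspa1a, its near-identical neighbour, with which it may share reads, had 2193, 5792, 4091 and 797 CPM in Mono and 1809, 1145, 2693 and 1234 CPM in Mono+MCTR3, a difference of -1.0 ± 0.412 (adjusted p = 0.813). The Hspa1a groups overlapped, and Mono mice 2 and 3 were high.

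Dnajb1, a co-chaperone of the same response, had 558, 2424, 1157 and 423 CPM in Mono and 494, 317, 482 and 637 CPM in Mono+MCTR3 (-1.32 ± 0.437, adjusted p = 0.532). Mono mouse 2 was the highest of the 8 mice and the groups overlapped. Over the heat shock list 7 of the 8 tested genes were lower in Mono+MCTR3 and 5 had an unadjusted p under 0.05, with a median of -0.64 beside -0.01 over all genes, and 0 passed the adjustment. Without Mono mouse 2 the median was -0.37, Dnajb1 was at -0.56 and Hspa1a at -0.50. The summed level of the list was 6646 to 21491 CPM in Mono and 7186 to 8676 CPM in Mono+MCTR3 (exact permutation test, p = 0.229). Heat shock genes can respond to tissue dissociation, whose part in this difference was not tested.

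Ifngr1, a chain of the interferon-gamma receptor, had 705, 554, 685 and 460.5 CPM in Mono and 251, 418, 442 and 226 CPM in Mono+MCTR3, without overlap (-0.88 ± 0.246, adjusted p = 0.425). S100a6 had 1263, 599, 664 and 1917 CPM in Mono and 519, 1066, 643 and 82.2 CPM in Mono+MCTR3, with overlap (-0.89 ± 0.429, adjusted p = 0.813). In the other direction, Lck, the kinase that starts receptor signalling, had 359, 299, 171 and 398 CPM in Mono and 712, 468, 563 and 514 CPM in Mono+MCTR3 (0.81 ± 0.240, adjusted p = 0.452). Cd2, an adhesion receptor, had 386, 554, 278 and 348 CPM in Mono and 561, 612, 804 and 637 CPM in Mono+MCTR3 (0.64 ± 0.229, adjusted p = 0.7). Both were higher in each Mono+MCTR3 mouse than in each Mono mouse. These genes were picked by their ratios, and Hspa1b by its p. How many of all genes tested separate the groups in this way was not counted, so the separation is no sign of a group effect by itself. Cd52, a surface glycoprotein (0.47), Srsf5, a splicing factor (0.41), and H2afz, a histone (0.41), completed the 5 highest ratios among genes with at least 200 UMIs, with adjusted p of 0.813 to 0.976 and groups that overlapped.

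**Figure D5:**
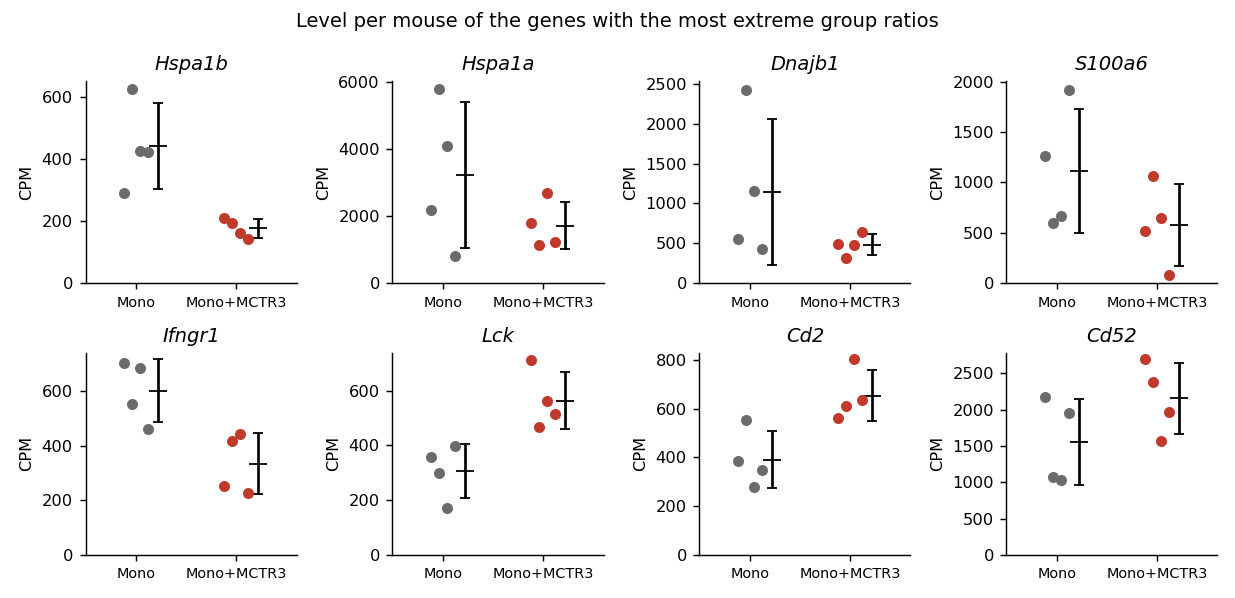
Level (y axis, CPM) of 8 genes in the selected cells of each mouse (points) with the group mean ± SD (black bars, n = 4); the 8 were taken from the most extreme ratios, with Hspa1b added. The plotted values overlap between groups except for Hspa1b, Ifngr1, Lck and Cd2, and 0 of the 8 genes passed the adjustment. The share of all tested genes without overlap was not counted.

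The other lists had 0 genes past the threshold between the groups. All 10 tested genes of activation and memory were lower in Mono+MCTR3 (median -0.38), but 6 of 9 were when the gamma-delta cells were left out. Of 18 quiescence and homing genes 11 were lower (median -0.04), and of 17 receptor and signalling genes 9 were lower (median -0.002). All 4 tested regulatory T cell genes (Tnfrsf18, Capg, Icos and Izumo1r) were higher (median 0.41). The summed level of that list was 1008 to 1257 CPM in Mono and 987 to 1793 CPM in Mono+MCTR3 (exact permutation test, p = 0.257). Capg and Icos were in 77.8% and 66.7% of the gamma-delta or Il17a cells, above their 41.2% and 47.1% of the Foxp3-positive cells. Tnfrsf18 and Izumo1r went the other way. This list was not counted without the gamma-delta cells. Of 12 immediate early genes 10 were lower (median -0.36). None of the 20 genes of the gamma-delta and type 17 list was abundant enough to be tested between the groups. In the interferon, cell cycle, class I presentation and helper lists 1 of 2, 2 of 3, 6 of 7 and 1 of 1 tested genes were lower.

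Transcripts of other cell types were found throughout the cells. S100a8 and S100a9, neutrophil genes that the rule limits, were in 96.6% and 96.1% of the selected cells (1465 and 1180 CPM) and in 94.9% and 91.7% of B cells (1721 and 1315 CPM). Ighm, the heavy chain of IgM, was in 48.5% of the selected cells and 62.3% of CD8 T cells, and Lyz2 in 31.4% and 44.3%. In 8 of the 204 cells a list of another cell type reached 10 or more UMIs: the B cell list in 3 cells (at most 139 UMIs), the natural killer list in 5 (at most 107) and the monocyte or macrophage list in 1 cell of Mono mouse 1 (429 UMIs). Of the 10 monocyte or macrophage markers 7 had a UMI, with C1qa, C1qb and C1qc at 0, and their sum was 85.7 to 5822 CPM in Mono and 101 to 216 CPM in Mono+MCTR3. Of the 11 natural killer markers 9 had a UMI, with Ncr1 and Klra4 at 0 (274 to 2065 and 82.2 to 605 CPM), and of the 12 B cell markers 10 had one, with Pax5 among those at 0 (343 to 809 and 201 to 1527 CPM). Of the 13 neutrophil markers 12 had a UMI, with Cxcr2 at 0, and they summed to 3074 to 4177 CPM in Mono and 2303 to 6056 CPM in Mono+MCTR3. Without the 8 cells 0 of 691 genes differed between the groups, and against CD8 T cells 74 genes differed. Against effector T cells Ighm, the 1 B cell marker tested, was higher in the selected cells.

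Sums of the remaining lists were small and overlapped between the groups. The innate lymphoid type 2 list summed to at most 216 CPM in a mouse, the plasmacytoid dendritic list to at most 193 CPM, the erythroid list to at most 146 CPM, the thymocyte list to at most 121 CPM and the fibroblast list to at most 12.4 CPM.

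Whether the group difference was itself different in CD8 T cells was tested in a fit over both cell sets. Of 828 genes 1 passed (0.121%), Cd74, the invariant chain of MHC class II, while DESeq2 called 0 (29 and 17 genes had an unadjusted p under 0.05). In CD8 T cells 462 of the 485 Cd74 UMIs lay in 1 cell of Mono mouse 4, and without Mono mouse 4 Cd74 was too low to be tested.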

How the data were processed

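Single-cell 3′ RNA-seq (10x Chromium) of CD45+ joint cells was analysed. The authors aligned reads and counted UMIs with Cell Ranger on GRCm38 and joined the mice of a group; the deposited values are whole-number UMI counts per gene and cell barcode, in 1 table per group. No source used here gives a version for these tools. The study joined the mice with the aggr step of Cell Ranger to normalise the cells of a group; the depth setting of that step was not stated. Of 10538 barcodes, those with 250 to 3000 detected genes, 500 or more UMIs and no more than 5% of UMIs from mitochondrial genes were kept, following the study.

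The cell rule and gene lists were chosen with earlier results of these data known. Samples were grouped by label, and mice by barcode suffix. Shares were compared by two-sided exact permutation tests over mice, with Wilson intervals (95%) and zero limits (3 counts) covering counting error only. Counts summed per mouse were tested with edgeR 4.0.16 (TMM, filterByExpr, quasi-likelihood) in R 4.3.3, between groups and, with the mouse as block, against CD8 or effector T cells; the pairing comes from the animal, as both sums of a pair are cells of the same mouse. DESeq2 1.42.0 was an alternative, as were other cell limits, scalings, filters, thinning to 1000 UMIs and leaving out each mouse. The study's likelihood ratio test was tried as well. The edgeR scripts were tested on simulated data.

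Genes were named by rule: the markers Cd3e, Cd4, Trac, Trbc2, Thy1, Foxp3 and Trdc; per comparison the 10 largest changes each way past an adjusted p of 0.05 with at least 50 UMIs, or, where fewer than 5 passed, the 5 most extreme ratios with at least 200 UMIs; the most abundant list genes (at least 20 UMIs); and the 10 leading folds. Others named were chosen after their values were seen. A few genes that the rule takes in are not reported here. Scrublet marked 52 of 10498 barcodes (0.495%) as doublets, too few to show that it worked, and none of the 204 cells; the call count shifted by a few barcodes with numerical precision.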

Additional observations from a re-analysis of the deposited data

Results flagged for a closer look

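In 98 sets of 4 mice, 10 had 1 mouse far from the other 3 by Dixon's criterion, where chance gives about 1 in 20. Counts behind most of them are small. In Mono mice these were the Foxp3 share of mouse 3 (5.88%, 1 of 17 cells), the summed monocyte or macrophage markers of mouse 1 (5822 CPM, mostly from 1 cell), the fibroblast markers of mouse 4 (12.4 CPM) and Il17a in mouse 1 (39.9 CPM, from 1 cell). In Mono+MCTR3 mice, mouse 1 had a Trdc share of 0% of 42 cells. Mouse 2 was highest for Trdc (590.5 CPM), Cd163l1 (209 CPM) and Tcrg-C1 (324 CPM), and lowest for the summed heat shock list (7186 CPM). Mouse 4 was lowest for Icos (144 CPM).

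The difference between the groups differed between the selected cells and CD8 T cells for Cd74 (log2 interaction 4.46 ± 0.714, SE, adjusted p = 0.00465, edgeR). In the selected cells Cd74 was at 21.4 to 249 CPM in Mono and 0 to 317 CPM in Mono+MCTR3, and in CD8 T cells at 0 to 4480 CPM in Mono and 0 to 167 CPM in Mono+MCTR3. The 4480 CPM came from Mono mouse 4, where 1 CD8 T cell held 462 UMIs.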

How the results depend on the processing

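The share of kept cells kept its sign under every alternative but 1: it was -0.0122 percentage points without Mono+MCTR3 mouse 1, in a range of -0.0122 to 0.770 with single mice left out, and 1.41 points (p = 0.2, exact permutation test) when taken over cells low in S100a8 and S100a9. The Trdc share difference was -0.0116 points after thinning to 1000 UMIs. No share passed the threshold under any alternative tried. For genes changed between the groups the count of 0 became 1 with the likelihood ratio test and 16 with no filter on low counts, and was 0 to 2 with single mice left out. Against CD8 T cells the count of 85 became 32 without the replicate block, 22 with thinning (fewer genes tested), 40 with DESeq2, and 39 to 79 with single mice left out; leaving out the gamma-delta cells, which was added once the data had been seen, gave 48. Against effector T cells the count of 140 became 473 with no filter, 42 with thinning, and 97 to 146 with single mice left out. The Cd74 call was lost with DESeq2 (0). Without Mono+MCTR3 mouse 2 (0 calls) or without Mono mouse 4 (1 call, Lyz2), Cd74 was too low to be tested. With no filter 7 genes were called. Beyond fewer genes or samples, the cause was not tested. No paired analysis was possible because, between the groups, the mice share only a barcode number. Depth, with as few as 8 cells in a mouse, limits every value for Foxp3, Trdc and Il17a.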
